A study of Mus musculus with 18 samples.

Results

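Tbx4 and Tbx5 are the paired limb-type genes of the T-box family of transcription factors, and their RNA was followed here in the hindlimb of mouse embryos that lack Pitx1. Both were found by their exact symbols in the expression table of each stage, and they are 2 of 23919 genes kept for analysis. The knockout groups were Pitx1-/- embryos taken on embryonic day E9.5, E11.5 or E12.5, and the wild-type groups were embryos of the same stages. All 18 libraries carry the strain label C57BL/6, and each of the 6 groups held 3 libraries of messenger RNA from a strand-preserving kit. At E9.5 the tissue comprised the hindlimb field and trunk next to it, and at E11.5 and E12.5 it was the hindlimb. Nothing in the labels tells what the knockout allele removes from Pitx1. They also do not say whether replicates came from separate embryos or litters, so each p-value measures the spread between these libraries, which may be technical.

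Limb buds of both pairs grow out through a loop in which mesenchymal FGF10 and ridge FGF8 maintain each other. Tbx5 starts this loop in the forelimb and Tbx4 takes part in starting it in the hindlimb, while PITX1, a homeodomain protein, is made in the hindlimb and is known to activate Tbx4 there. Both T-box genes also act in muscle, tendon and connective tissue patterning of the limb, Tbx5 is a heart gene, and both are used in the lung. In bulk tissue, fewer cells of a type and less RNA per cell cannot be told apart.

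The genes lie apart in the genome, each beside another T-box gene. In GENCODE on GRCm38, Tbx4 spans chr11:85886422-85916097 on the plus strand and follows Tbx2, and Tbx5 spans chr5:119832668-119885219 on the plus strand and follows Tbx3. The tables name genes without coordinates and were made on another build, so positions here serve only to place the genes. Because Tbx5 was scarce beside its relative, the coding sequences were compared to see whether fragments of one could be taken for the other. No run of 31 bases was shared by the longest coding transcripts of the pair, and the longest shared run was 23 bases. Exact matches alone were sought, so this cannot settle whether fragments aligned with mismatches were assigned to the wrong gene. Neither gene shared a run of 31 bases with its neighbour Tbx2 or Tbx3 either.

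Of the pair, Tbx4 was matched in RefSeq's promoter table on GRCm38.p6, and the sequence before its start is shown as that of the gene whose RNA fell in the knockout. The table places that start at the innermost of 3 transcript starts that GENCODE gives for the gene. The 250 bases before it, chr11:85896515-85896764 on the plus strand, lie inside the gene, after the starts of its 2 longer transcripts. Their overlap with exons of those transcripts was not checked.
Tbx4 upstream: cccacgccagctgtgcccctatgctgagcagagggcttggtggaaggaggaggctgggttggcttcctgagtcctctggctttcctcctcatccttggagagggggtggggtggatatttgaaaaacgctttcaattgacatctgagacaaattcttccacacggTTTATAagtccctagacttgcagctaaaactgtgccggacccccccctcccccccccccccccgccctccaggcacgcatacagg
Capitals mark the single match to TATAAA, read on the opposite strand and starting 85 bases before the start. The motifs were searched on both strands of 300-base windows that also take in 50 bases after the start. TATAAA occurred in 13.6% of 32851 such windows, TAATCC, the core bound by PITX proteins, in 7.06%, and GGTGTG, the core of T-box sites, in 19.0%. The Tbx4 window held neither TAATCC nor GGTGTG, which says only that these letters are not in it.

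Depth ranged between 14361919 and 60672151 fragments per library and moved with genotype at both earlier stages. At E9.5 knockout libraries held 14361919 to 18553033 fragments, against 20673065 to 40020110 in wild-type libraries. At E11.5 knockout libraries held 44986881 to 60672151, against 38770845 to 40973174 in wild-type libraries. At E12.5 the ranges overlapped. Pitx1, the gene knocked out, separated the genotypes without overlap at all 3 stages, with the knockout lower. In E9.5 tissue it stood at 24.1, 25.05 and 18.3 RPKM (reads per kilobase, scaled to library size) in the knockout, against 48.5, 57.1 and 58.8 in the wild type. At E11.5 it stood at 23.2, 17.3 and 20.01 RPKM in the knockout, against 138.5, 111.6 and 109.01 in the wild type. At E12.5 the knockout had 10.8, 13.4 and 11.6 RPKM, against 114.2, 112.5 and 44.6 in the wild type. Wild-type replicate 3 of E12.5 thus stood apart from its group, at 49.4% of the wild-type mean for Pitx1, and the main comparisons of the genotypes at that stage are also given without it.

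The tissue labels were checked against marker genes. The 6 limb mesenchyme markers summed to between 246 and 687 RPKM in every library. At E11.5 that sum was 574 to 687 RPKM in the knockout and 537 to 553 in the wild type. Of 9 heart markers, Nppa was at 0 in all libraries, and the E11.5 sum was 1.43 to 3.08 RPKM in the knockout and 2.99 to 3.23 in the wild type. Of 4 lung and foregut markers, the sums at E11.5 and E12.5 lay between 0.836 and 2.04 RPKM, and Nkx2-1, the defining lung gene, was at 0 in all libraries of both stages. At E9.5, where trunk was included, the lung and foregut sums were higher, at 6.99 to 8.35 RPKM in the knockout and 8.08 to 8.87 in the wild type. Those sums came from Foxa2 (means 4.25 in the knockout and 4.87 in the wild type) and Sox17 (3.47 and 3.53). Nkx2-1 was at 0 in the E9.5 knockout and at most 0.0186 RPKM in the wild type, and Sftpc was at 0 in both. The E9.5 heart sums were 8.29 to 9.74 in the knockout and 4.76 to 9.17 in the wild type. Hox genes of forelimb-level trunk, 6 in number, summed to 12.8 to 17.6 RPKM in the E11.5 knockout and 12.7 to 16.6 in the wild type. At E9.5 the same genes summed to 53.8 to 54.1 RPKM in the knockout and 44.1 to 70.4 in the wild type.

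At E9.5 Tbx4 RNA was present in both genotypes at levels that did not pass the test of a difference. The knockout libraries had 16.1, 19.8 and 19.3 RPKM, against 22.3, 31.1 and 19.9 RPKM in the wild type. The groups did not overlap, but knockout replicate 2 and wild-type replicate 3 nearly met, with 95% counting intervals of 18.6 to 21.05 and 18.9 to 20.9 RPKM. Wild-type replicate 2 stood highest, and without it the log2 change was -0.20, in a range of -0.54 to -0.20 over the 6 fits without 1 library. The means were 18.4 ± 1.99 RPKM in the knockout and 24.4 ± 5.88 in the wild type (SD, n = 3 each). The log2 change was -0.41 ± 0.17 (SE). edgeR's quasi-likelihood test gave an unadjusted p of 0.0352 and an adjusted p of 0.999 with Benjamini-Hochberg adjustment over 13804 genes. At an adjusted p under 0.05, 0.0217% of those genes were called at this stage, that is 3, and 553 (4.01%) had an unadjusted p under 0.05. DESeq2 called 20 genes (0.142%), and between 0 and 2 were called by edgeR when any 1 library was left out.

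At E11.5 Tbx4 RNA fell in the knockout, where it was 2.89-fold lower than in the wild type. The knockout libraries had 20.8, 21.99 and 23.2 RPKM, against 69.2, 58.4 and 63.02 RPKM in the wild type. The lowest wild-type library lay far above the highest knockout library, and replicates lay close together in both genotypes. The means were 21.99 ± 1.21 RPKM in the knockout and 63.6 ± 5.42 in the wild type (SD, n = 3 each), so that the knockout kept 34.6% of the wild-type level. The log2 fold change was -1.53 ± 0.085 (SE, 95% interval -1.72 to -1.34, adjusted p = 6.32e-05, edgeR). Among 14601 genes tested, 286 or 1.96% were called, and Tbx4 had the smallest p of all. Of the 148 genes called lower in the knockout, 40 fell further than Tbx4. The number called was between 9 and 643 when any 1 library was left out, and the Tbx4 call held in each of those 6 fits, with log2 fold changes from -1.59 to -1.47.

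At E12.5 Tbx4 RNA was again lower in the knockout, 1.78-fold below the wild type. The knockout libraries had 25.8, 28.5 and 24.3 RPKM, against 48.98, 46.8 and 43.9 RPKM in the wild type. The groups were well apart, with the wild-type library of low Pitx1 the lowest of its group for Tbx4. The means were 26.2 ± 2.16 RPKM in the knockout and 46.5 ± 2.56 in the wild type (SD, n = 3 each), so that the knockout kept 56.3%. The log2 fold change was -0.83 ± 0.076 (SE, adjusted p = 0.0263, edgeR), and 2 of 14494 genes, 0.0138%, were called. The other was Zfp429, a zinc finger gene, which had the smaller p. Without wild-type replicate 3 the log2 fold change of Tbx4 was -0.87 (adjusted p = 0.00652, edgeR), and 15 genes were called. Leaving out any 1 of the other 5 libraries ended the call, with log2 fold changes from -0.90 to -0.78 and adjusted p-values from 0.0508 to 0.141 (edgeR). Over all 6 such fits between 1 and 15 genes were called.

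**Figure D1:**
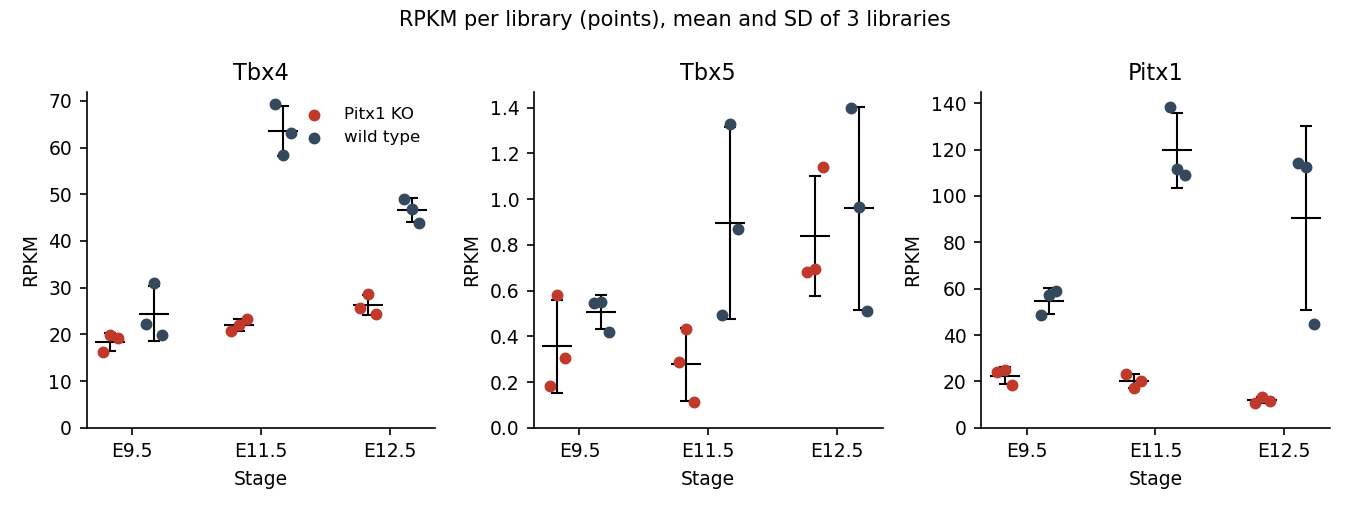
RPKM of Tbx4, Tbx5 and Pitx1 in each library (points) by stage, Pitx1 knockout in red to the left of wild type in dark blue, with the mean and SD of 3 libraries as black bars and each vertical axis starting at 0. Tbx4 separated the genotypes at E11.5 (21.99 against 63.6 RPKM on average) and E12.5 (26.2 against 46.5), while Tbx5 did not exceed 1.40 RPKM and 1 wild-type library of E12.5 was low for Pitx1.

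Tbx5 RNA was close to the limit of measurement in the hindlimb of both genotypes. At E9.5 the knockout libraries had 0.184, 0.581 and 0.303 RPKM, against 0.545, 0.549 and 0.420 RPKM in the wild type. These values rest on 14 to 40 fragments per library in the knockout and 41 to 87 in the wild type. Knockout replicate 2 was the highest of all 6, so the genotypes overlapped. The means were 0.356 ± 0.204 RPKM in the knockout and 0.505 ± 0.0737 in the wild type (SD, n = 3 each). The log2 change was -0.51 ± 0.46 (SE), with an adjusted p of 0.999 (edgeR). It was -0.19 without knockout replicate 1 and -1.06 without knockout replicate 2.

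At E11.5 Tbx5 was lower in each knockout library than in each wild-type library, but the difference did not pass the test. The knockout libraries had 0.289, 0.430 and 0.114 RPKM, against 0.492, 1.33 and 0.870 RPKM in the wild type. The counts behind them were 70, 101 and 20 fragments in the knockout and 78, 224 and 136 in the wild type. The nearest libraries could not be told apart by counting error, with 95% intervals of 0.350 to 0.523 RPKM in knockout replicate 2 and 0.389 to 0.614 in wild-type replicate 1. The means were 0.278 ± 0.158 RPKM in the knockout and 0.896 ± 0.418 in the wild type (SD, n = 3 each). The log2 fold change was -1.67 ± 0.50 (SE, 95% interval -2.81 to -0.54, adjusted p = 0.109, edgeR). DESeq2 gave the same -1.67 with an adjusted p of 0.00688, so this call depends on the tool.

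At E12.5 the genotypes overlapped again for Tbx5. The knockout libraries had 0.683, 0.694 and 1.14 RPKM, against 1.40, 0.967 and 0.511 RPKM in the wild type. The lowest and the highest of the 6 were both wild type, and the lowest was the library of low Pitx1. The means were 0.839 ± 0.261 RPKM in the knockout and 0.959 ± 0.444 in the wild type (SD, n = 3 each). The log2 fold change was -0.18 ± 0.39 (SE, 95% interval -1.07 to 0.71, adjusted p = 0.849, edgeR), and the interval reaches from a fall as large as that of Tbx4 at the same stage to a rise. The direction turned without wild-type replicate 1, to 0.19, and the value was -0.50 without wild-type replicate 3, and -0.06 without knockout replicate 1 or 2.

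Tbx4 greatly outnumbered Tbx5 in every library, and its share of the pair overlapped between the genotypes at each stage. The share lay between 95.5% and 99.5% in all 18 libraries, near its upper end, where even a large change of Tbx4 moves it little. Per kilobase, Tbx4 was 21.3 to 203.8 times Tbx5 in knockout libraries and 35.0 to 140.8 times in wild-type libraries. At E9.5 Tbx4 made up 98.2% ± 0.900 of the summed RPKM in the knockout and 97.9% ± 0.324 in the wild type (SD, n = 3 each, exact permutation p = 0.7, two-sided). At E11.5 it made up 98.7% ± 0.722 in the knockout and 98.6% ± 0.760 in the wild type (SD, n = 3 each, exact permutation p = 0.8). At E12.5 it made up 96.9% ± 1.16 in the knockout and 98.01% ± 0.813 in the wild type (SD, n = 3 each, exact permutation p = 0.3). With 3 libraries a group the smallest p this test can give is 0.1, so it could not have passed. Without wild-type replicate 3 the E12.5 shares differed by -0.74 percentage points, against -1.16 with it. Ranked from the top by RPKM within a library, Tbx4 lay between places 1239 and 5347, and Tbx5 between 11741 and 14448 of at most 17278 genes above 0.

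Tbx4 and Tbx5 were also followed over the stages within each genotype. The tables of the stages were normalized separately, so stages were compared on fragment counts in joint fits rather than on RPKM. Part of the change after E9.5 cannot be told apart from the change in dissected tissue, since that stage included trunk. In the wild type Tbx4 was higher at E11.5 than at E9.5 by 1.31 ± 0.14 on the log2 scale (SE, adjusted p = 4.42e-06, edgeR). It was then lower at E12.5 than at E11.5, at -0.52 ± 0.079 on the log2 scale (SE, adjusted p = 0.000755, edgeR), and -0.48 without wild-type replicate 3 of E12.5. In the knockout the same steps were 0.18 ± 0.14 (adjusted p = 0.293) and 0.17 ± 0.080 (adjusted p = 0.110, SE, edgeR), and neither passed. Such calls were common, at 50.5% of 15372 genes in the knockout and 55.9% in the wild type for the first step. For the second they were made for 41.5% of 15324 genes in the knockout and 33.4% in the wild type.

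The knockout effect on Tbx4 was compared between stages directly, and neither difference passed. Relative to E9.5, the log2 fold change of Tbx4 at E11.5 differed by -1.12 ± 0.20 (SE, 95% interval -1.55 to -0.70), with an unadjusted p of 5.65e-05 and an adjusted p of 0.102 (edgeR). Relative to E11.5, that at E12.5 differed by 0.69 ± 0.11 (SE, 95% interval 0.44 to 0.93), with an unadjusted p of 3.51e-05 and an adjusted p of 0.108 (edgeR). Both estimates use the same E11.5 libraries. Only 0.026% of 15372 genes passed the first test and 0.00653% of 15324 the second, and Tbx4 ranked 7 and 5 by p among them. DESeq2 called both differences, with adjusted p-values of 9.47e-05 and 0.000163, beside 2.84% and 0.736% of all genes it tested. The first also passed with all 18 libraries in the fit (adjusted p = 0.0430, edgeR) and without wild-type replicate 2 of E9.5, the library highest for Tbx4 at that stage (-1.33, adjusted p = 0.00777, edgeR).

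For Tbx5 the single stage step that passed was in the knockout. It was higher at E12.5 than at E11.5 there, by 1.49 ± 0.51 on the log2 scale (SE, adjusted p = 0.0321, edgeR). The call was lost without knockout replicate 1 of E11.5 (1.52, adjusted p = 0.0699), knockout replicate 3 of E11.5 (1.13, adjusted p = 0.0948) or knockout replicate 3 of E12.5 (1.21, adjusted p = 0.120, edgeR). In the wild type the same step was 0.02 ± 0.49 (SE, adjusted p = 0.982, edgeR), with values from -0.36 to 0.42 when any 1 library was left out. The step between E9.5 and E11.5 was -0.41 in the knockout (adjusted p = 0.535) and 0.75 in the wild type (adjusted p = 0.211, edgeR). The knockout value was 0.15 without knockout replicate 2 of E9.5 and -0.05 without knockout replicate 3 of E11.5, and the wild-type value was 0.36 without wild-type replicate 2 of E11.5. The difference of the knockout effect on Tbx5 was -1.17 ± 0.72 for E11.5 minus E9.5 (adjusted p = 0.454) and 1.48 ± 0.70 for E12.5 minus E11.5 (adjusted p = 0.490, SE, edgeR).

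**Figure D2:**
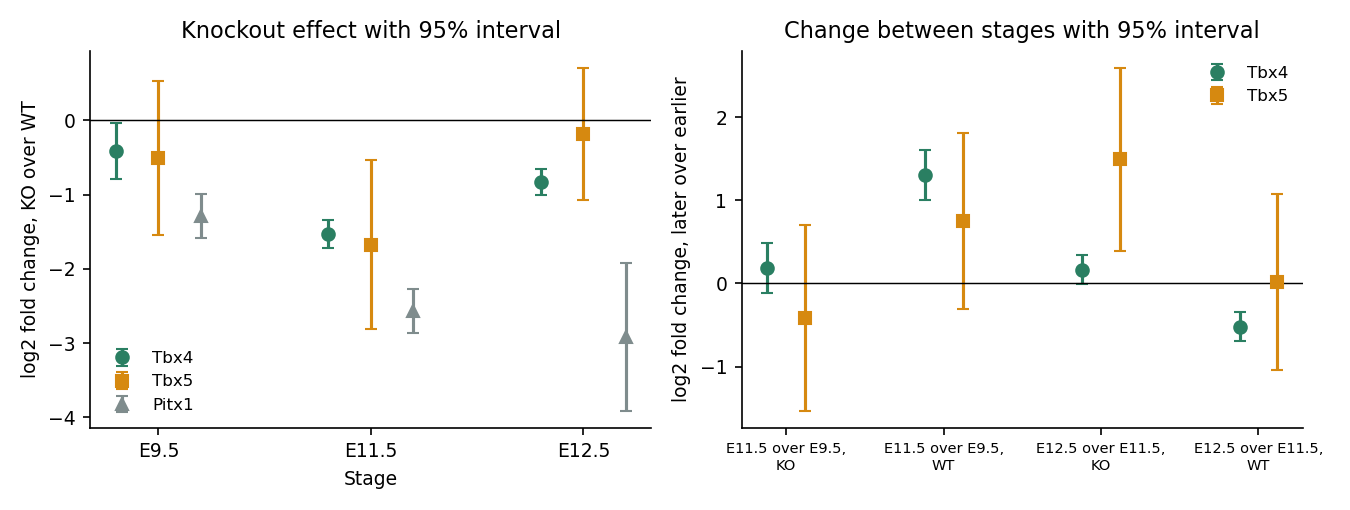
Log2 fold changes with 95% intervals from edgeR, knockout over wild type by stage for Tbx4, Tbx5 and Pitx1 (left), and later over earlier stage within each genotype for Tbx4 and Tbx5 (right). The Tbx4 estimate was -0.41 at E9.5, -1.53 at E11.5 and -0.83 at E12.5, and the wide Tbx5 intervals exclude 0 at E11.5 and for the later step in the knockout.

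On CPM (fragments scaled to library size, with TMM) over all 18 libraries, the 6 groups could be ordered for each gene. Tbx4 was highest in the E11.5 wild type at 191 ± 16.4 CPM, followed by the E12.5 wild type at 133 ± 7.09 and the E9.5 wild type at 77.4 ± 18.9 (SD, n = 3 each). Then came the knockout at E12.5 with 74.9 ± 6.27, at E11.5 with 66.2 ± 3.69 and at E9.5 with 58.2 ± 5.86 (SD, n = 3 each). The 3 highest groups did not overlap with each other, whereas each of the last 4 overlapped with its neighbour in this order. For Tbx5 the groups lay between 1.12 ± 0.639 CPM in the E11.5 knockout and 3.67 ± 1.69 in the E12.5 wild type (SD, n = 3 each). All its neighbours in the order overlapped except the E12.5 knockout at 3.22 and the E9.5 wild type at 2.13.

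The knockout kept a larger part of the wild-type mean for Tbx4 than for Pitx1 at each stage, and the difference between the genes was not tested. At E9.5, where Tbx4 did not pass, the knockout kept 41.1% of the wild-type mean RPKM for Pitx1 and 75.4% for Tbx4. At E11.5 it kept 16.8% for Pitx1 and 34.6% for Tbx4. At E12.5 it kept 13.2% for Pitx1 and 56.3% for Tbx4, or 10.5% and 54.7% without wild-type replicate 3. The ratio of Tbx4 to Pitx1 RPKM was higher in each knockout library than in each wild-type library of its stage. Pitx1 is the gene knocked out, so its own fall raises this ratio, which is given as a description only. What the allele removes is not known here, so the Pitx1 RNA left does not measure the PITX1 function left. At E9.5 the ratio was 0.669 to 1.05 in the knockout and 0.338 to 0.544 in the wild type. At E11.5 it was 0.895 to 1.27 in the knockout and 0.500 to 0.578 in the wild type. At E12.5 it was 2.10 to 2.38 in the knockout against 0.429, 0.416 and 0.983 in the wild type, the last in the library of low Pitx1. In the wild-type library of E12.5 with 49.4% of the mean Pitx1, Tbx4 was at 94.3% of its own mean.

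**Figure D3:**
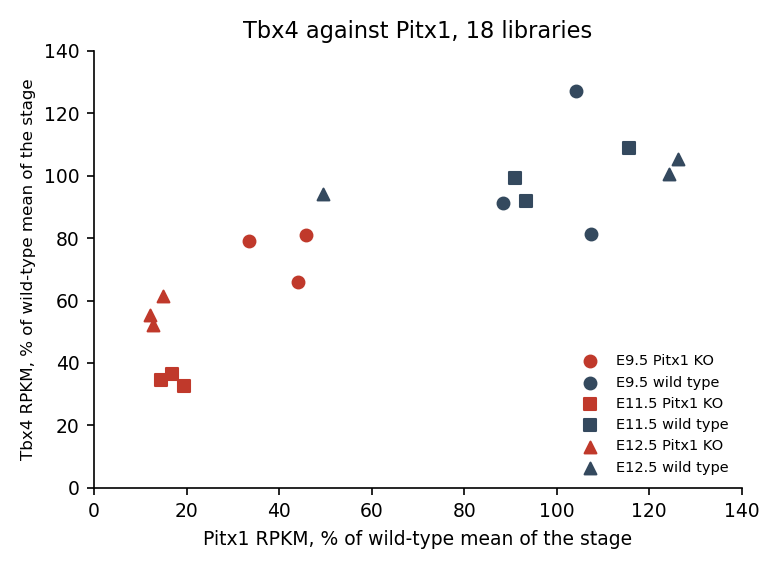
Tbx4 against Pitx1 RPKM in each of 18 libraries, both as a percentage of the wild-type mean of the stage, knockout in red and wild type in dark blue, with a symbol per stage. The 3 E11.5 knockout libraries lie lowest for Tbx4, and the E12.5 wild-type library at 49.4% for Pitx1 lies at 94.3% for Tbx4.

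The summed markers of 6 of 11 tissue lists did not overlap between the genotypes at E11.5, where Tbx4 fell. They were those of limb mesenchyme, given above, muscle, cartilage, ectoderm, endothelium and macrophages. The 4 muscle markers summed to 10.5 to 15.3 RPKM in the knockout and 26.6 to 47.5 in the wild type, none of them called. The 3 cartilage markers summed to 66.5 to 96.2 RPKM in the knockout and 135.8 to 180.6 in the wild type, and Sox9 and Col2a1, the master regulator and the main collagen of cartilage, fell. Of 5 surface ectoderm and ridge markers, Wnt7a, the dorsal ectoderm signal, rose, and the list summed to 59.8 to 64.1 RPKM in the knockout and 47.2 to 48.7 in the wild type. The 4 endothelium markers summed to 41.9 to 44.3 RPKM in the knockout and 45.2 to 51.0 in the wild type, and the 4 macrophage markers to 2.90 to 5.30 in the knockout and 5.79 to 7.54 in the wild type, none of them called. At E12.5 the lists that did not overlap were 3 of 11, cartilage, macrophages and lung and foregut, and at E9.5 they were 0 of 11. With 3 libraries a group, a fraction of 0.1 of all splits separates fully by order alone. The share of all genes that did not overlap was not counted. An unadjusted p under 0.05 (edgeR) was reached by 4.01% of all genes at E9.5, 22.2% at E11.5 and 15.1% at E12.5. These counts of lists are therefore not read as a result about tissues. At E12.5 the macrophage sums were 8.10 to 9.54 RPKM in the knockout and 10.8 to 15.8 in the wild type, and the lung and foregut sums were 0.928 to 1.01 in the knockout and 1.02 to 1.43 in the wild type. The muscle sums at that stage were 69.4 to 114 RPKM in the knockout and 85.8 to 111 in the wild type, and the cartilage sums were 141 to 190 in the knockout and 218 to 275 in the wild type. The part of these tissues in the Tbx4 result was not tested.

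Ranked by p against all genes, Tbx4 was at the edge of the distribution at the limb stages and Tbx5 was not. By size this does not hold at E11.5, where the log2 fold change was -1.67 ± 0.50 for Tbx5 and -1.53 ± 0.085 for Tbx4 (SE, edgeR). Tbx4 ranked 377 by p among genes tested at E9.5, 1 at E11.5 and 2 at E12.5. Tbx5 ranked 3834, 1188 and 11050.

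**Figure D4:**
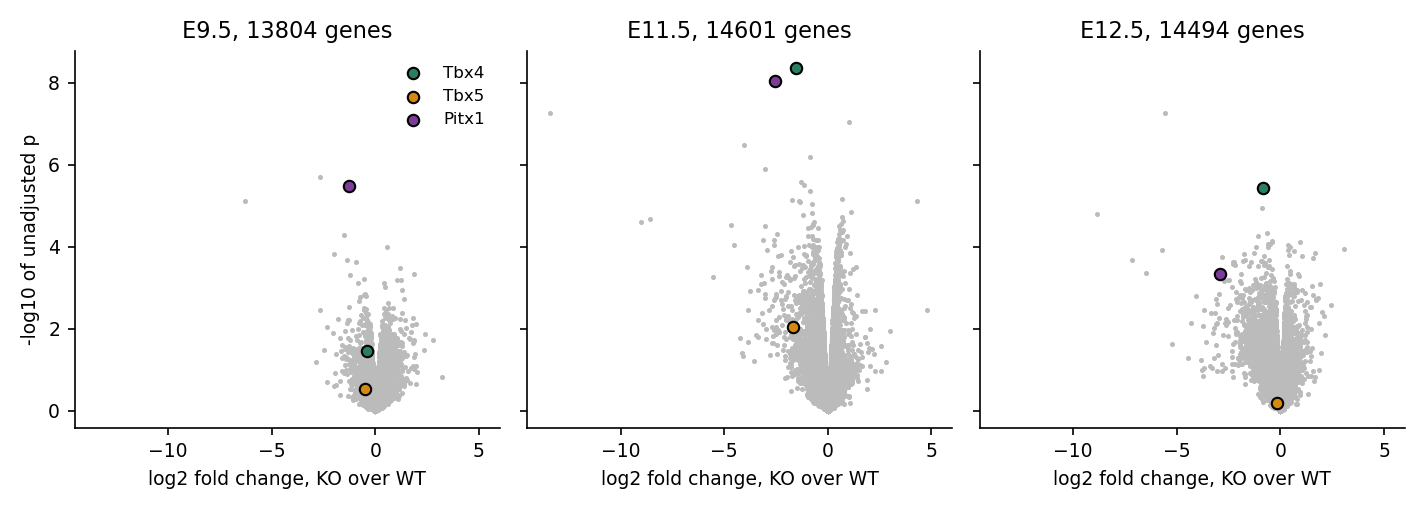
Log2 fold change, knockout over wild type, against -log10 of the unadjusted p for each gene tested at each of the 3 stages (grey), with Tbx4, Tbx5 and Pitx1 marked. Tbx4 tops the E11.5 panel and ranks 2 at E12.5, while Tbx5 lies among the bulk of genes at E9.5 and E12.5.

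The wider T-box family was measured to see which of its other members moved. It lists 17 genes, of which 12 could be tested at E9.5 and at E11.5 and 11 at E12.5. None was called at E9.5 by edgeR or DESeq2, which called 0.0217% and 0.142% of all genes. There 2 members, Tbx3 and Tbx4 itself, had an unadjusted p under 0.05 (edgeR), beside 4.01% of all genes. At E11.5 Tbx4, Tbx18 and T fell, none rose and 9 did not pass, against the 1.96% called among all genes. DESeq2 called 5 members there, these 3 with Tbx5, lower, and Tbx2, higher, beside 8.96% of all genes it tested. At E12.5 Tbx4 was the member called, also without wild-type replicate 3. Tbx18, a gene of limb and somite mesenchyme, had 27.8 ± 4.05 RPKM in the knockout and 43.4 ± 2.51 in the wild type at E11.5 (SD, n = 3 each), with a log2 change of -0.64 ± 0.10 (SE) and an adjusted p of 0.0224 (edgeR). T, the brachyury gene of primitive streak and notochord, was near the limit of measurement at that stage, at 0.168 ± 0.0799 RPKM in the knockout and 0.775 ± 0.165 in the wild type (SD, n = 3 each, adjusted p = 0.0439, edgeR). The filter on low counts left out 5 members at E11.5, and the 10 tested beside Tbx4 and Tbx5 had a median log2 fold change of -0.52, against -0.01 over all genes tested. Those 10 include genes near 0 that entered through their wild-type level, such as T and Eomes, which had 0.0538 RPKM in the knockout and 0.657 in the wild type. The median of the others was -0.09 at E9.5 and 0.06 at E12.5.

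Tbx2 and Tbx3, which pattern the margins of the limb, lie next to Tbx4 and Tbx5 and did not pass edgeR's test at any stage. At E11.5 Tbx2 had 26.2 ± 0.952 RPKM in the knockout and 20.3 ± 3.43 in the wild type (SD, n = 3 each, log2 fold change 0.37, adjusted p = 0.108, edgeR). Tbx3 had 10.9 ± 1.26 RPKM in the knockout and 10.3 ± 1.30 in the wild type (SD, n = 3 each, adjusted p = 0.691, edgeR). Tbx15, a gene of limb and craniofacial mesenchyme and the most abundant family member at E11.5, had 74.3 ± 8.08 RPKM in the knockout and 83.2 ± 2.26 in the wild type (SD, n = 3 each, adjusted p = 0.296, edgeR).

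**Figure D5:**
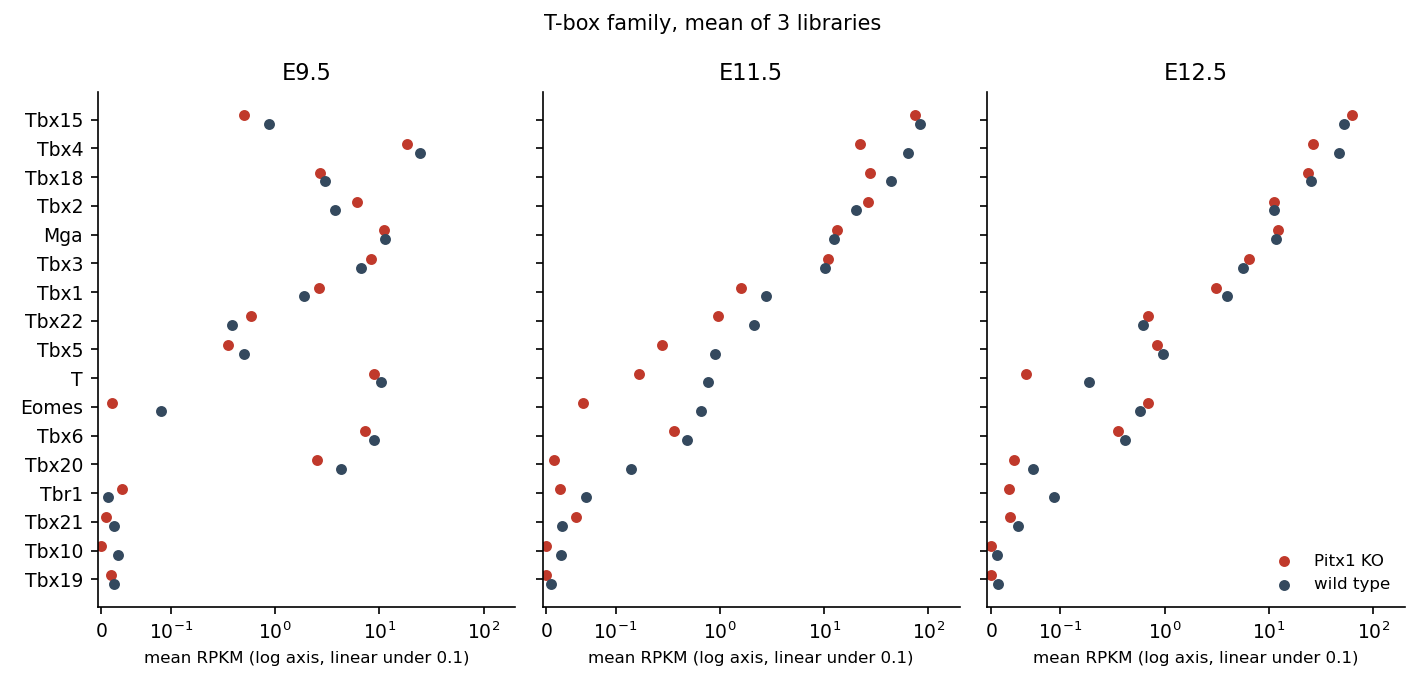
Mean RPKM of 3 libraries for each of 17 T-box genes by stage, on a log axis that is linear under 0.1, with knockout in red above wild type in dark blue for each gene. Tbx4 shows the gap between genotypes at both E11.5 and E12.5, and the least abundant members lie near 0.

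The 3 nearest protein-coding genes on each side of Tbx4 and of Tbx5 were then examined. Around Tbx4 these were Ppm1d, Bcas3 and Tbx2 before it and Brip1, Ints2 and Med13 after it. None was called by edgeR at any stage, where 0.0217%, 1.96% and 0.0138% of all genes were called in stage order. At E11.5 their log2 fold changes ran from -0.08 for Bcas3 to 0.37 for Tbx2, beside -1.53 for Tbx4. Unadjusted p-values under 0.05 (edgeR) were those of Ppm1d (0.0199) and Tbx2 (0.0086) at E11.5, beside 22.2% of all genes. At E12.5 they were those of Ppm1d (0.0146) and Bcas3 (0.0289, edgeR), beside 15.1% of all genes. At E12.5 they ran from 0.00 for Tbx2 to 0.23 for Ppm1d, beside -0.83 for Tbx4. Around Tbx5 the neighbours were Rnft2, Med13l and Tbx3 before it and Rbm19, Lhx5 and Sdsl after it, and none was called either. An unadjusted p under 0.05 (edgeR) was reached by Rnft2 (0.0148) and Tbx3 (0.00888) at E9.5, beside 4.01% of all genes. Rnft2 reached it at E11.5 too (0.0196, edgeR). Rnft2, a RING finger gene, had -0.74 at E11.5 (2.90 ± 0.866 RPKM in the knockout, 4.86 ± 1.24 in the wild type, SD, n = 3 each, adjusted p = 0.149, edgeR). Lhx5, a brain homeobox gene, was listed at 0 at both hindlimb stages.

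Hindlimb genes listed as upstream gave few calls beside Pitx1 itself, and whether each acts on Tbx4 was not tested. Of 13 listed, 13 were tested at E9.5, 11 at E11.5 and 12 at E12.5. At E9.5 Pitx1 fell, none rose and 12 did not pass, beside 0.0217% called among all genes. Isl1, a LIM homeobox gene that acts in hindlimb initiation, had 22.6 ± 1.23 RPKM in the knockout and 15.02 ± 0.305 in the wild type there (SD, n = 3 each, log2 fold change 0.59, adjusted p = 0.277, edgeR). DESeq2 called Isl1 higher, beside 0.142% of all genes it tested. At E11.5 Pitx1 fell, Lhx2 rose and 9 did not pass, beside 1.96% called among all genes. DESeq2 called both in the same directions, and Hoxa9, a posterior Hox gene, higher, beside 8.96% of all genes it tested. Lhx2, a LIM homeobox gene of the distal limb mesenchyme, had 45.5 ± 4.73 RPKM in the knockout and 31.8 ± 3.60 in the wild type (SD, n = 3 each, log2 fold change 0.52, adjusted p = 0.0376, edgeR). At E12.5 none passed, Pitx1 included (log2 fold change -2.92 ± 0.40 SE, adjusted p = 0.125, edgeR), though 4 reached an unadjusted p under 0.05, as did 15.1% of all genes. There DESeq2 called 2 members, Pitx1 lower and Hoxc10 higher, beside 2.96% of all genes. Without wild-type replicate 3 Pitx1 passed (log2 fold change -3.24 ± 0.086 SE, adjusted p = 3.14e-06, edgeR), as the single member called. Hoxc10, a hindlimb-level Hox gene, was at 33.9 ± 9.95 RPKM in the knockout and 18.8 ± 4.50 in the wild type there (SD, n = 3 each, adjusted p = 0.268, edgeR). The list's median log2 fold change was -0.05 at E9.5, 0.04 at E11.5 and 0.16 at E12.5.

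Forelimb genes listed as upstream gave no call with edgeR, and whether each acts on Tbx5 was not tested. The list of 14 holds Hox genes of forelimb-level trunk, Meis genes and the retinoic acid enzymes, and of these 14 were tested at E9.5, 14 at E11.5 and 13 at E12.5. An unadjusted p under 0.05 was reached by 0, 2 and 4 of them in stage order, and by 4.01%, 22.2% and 15.1% of all genes. DESeq2 called 0 at E9.5, 0 at E11.5 and 3 at E12.5, where it called 2.96% of all genes, with Meis1 and Meis2 higher and Aldh1a2 lower. Aldh1a2, which makes retinoic acid, had 15.6 ± 6.63 RPKM in the knockout and 30.8 ± 5.95 in the wild type at E11.5 (SD, n = 3 each, log2 fold change -0.98, adjusted p = 0.205, edgeR). Meis2, a proximal limb homeobox gene, had 14.7 ± 3.33 RPKM in the knockout and 7.19 ± 0.0918 in the wild type at E12.5 (SD, n = 3 each, log2 fold change 1.03, adjusted p = 0.0930, edgeR). Its relative Meis1 had 1.21 at E12.5 (adjusted p = 0.189, edgeR). Without wild-type replicate 3 of E12.5 none was called, and Meis2 had 1.02. The list's medians were 0.12 at E9.5, 0.13 at E11.5 and -0.04 at E12.5.

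A list of 26 genes drawn up around the limb T-box genes was tested in full at each stage and gave no call with edgeR. It holds genes of FGF and Wnt signalling, connective tissue and tendon, and others such as Gja1, Gja5, Yap1, Wwtr1, Hand2 and Plxna4. Whether each acts downstream of Tbx4 or Tbx5 was not tested. An unadjusted p under 0.05 was reached by 4, 3 and 9 of the 26 in stage order, and by 4.01%, 22.2% and 15.1% of all genes. DESeq2 called 0 at E9.5, 2 at E11.5 (Fgf10 higher, Scx lower) and 3 at E12.5 (Spry1, Spry4 and Osr2, all lower), beside 0.142%, 8.96% and 2.96% of all genes. Fgf10, the mesenchymal outgrowth signal, had 2.04 ± 0.517 RPKM in the knockout and 3.33 ± 0.922 in the wild type at E9.5 (SD, n = 3 each, log2 fold change -0.71, adjusted p = 0.999, edgeR). At E11.5, where Tbx4 was lowest relative to the wild type, it had 9.80 ± 1.66 RPKM in the knockout and 7.13 ± 0.0563 in the wild type (SD, n = 3 each, log2 fold change 0.46, adjusted p = 0.0635, edgeR). Fgf8, its partner in the ridge, had a log2 fold change of 0.44 at E11.5 (adjusted p = 0.252, edgeR). Scx, the tendon progenitor gene, had 33.2 ± 3.23 RPKM in the knockout and 45.3 ± 6.30 in the wild type at E11.5 (SD, n = 3 each, adjusted p = 0.0707, edgeR). Osr2, a connective tissue gene, had 21.9 ± 1.85 RPKM in the knockout and 33.1 ± 1.84 in the wild type at E12.5 (SD, n = 3 each, log2 fold change -0.59, adjusted p = 0.0930, edgeR). Without wild-type replicate 3 of E12.5 none was called, and Osr2 had -0.57. The medians were -0.16 at E9.5, -0.01 at E11.5 and 0.01 at E12.5, with 19 of 26 negative at E9.5 and 13 of 26 at each of the later stages.

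The genes most like Tbx4 were found by Pearson's r of log2 CPM, as a description over libraries that share stage and genotype. Over all 18 libraries, among 13097 genes, they were Kif27, a kinesin (r = 0.891), Gtf2ird1, a transcription factor (0.863), Cbfa2t3, a corepressor (0.822), Tigd2 (0.818) and Slc4a2, an anion exchanger (0.799). Pitx1 ranked 12 with an r of 0.782. Over the 12 hindlimb libraries less their stage means they were Vash1, a tubulin carboxypeptidase (0.968), Gtf2ird1 (0.963), Mip, the lens aquaporin (0.963), Slc4a2 (0.957) and Mfge8, a phosphatidylserine-binding protein (0.954). Pitx1 ranked 13 with 0.924. Kif27, for one, had 0.759 RPKM in the knockout and 1.57 in the wild type at E11.5 (log2 fold change -1.05, adjusted p = 0.0247, edgeR).

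The genes most like Tbx5 formed another set. Over all 18 libraries they were Dtna, a dystrobrevin (r = 0.865), Zfp947 (0.772), Stat5a, a cytokine signalling factor (0.765), Morn1 (0.763) and Rnf14, a ubiquitin ligase (0.738). Over the 12 hindlimb libraries less their stage means they were Dtna (0.916), Cadm4, an adhesion molecule (0.889), Mmp28, a metalloproteinase (0.885), Luzp2 (0.883) and Abcg1, a sterol transporter (0.881). Pitx1 ranked 2092 for Tbx5 over all libraries, with an r of 0.384, and 874 over the hindlimb libraries. Tbx5 rests on 14 to 224 fragments per library, and these values share its counting error.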

How the data were processed

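RNA was sequenced from 18 libraries in 6 groups of 3. The submitters' processing notes name TopHat2, Cuffdiff and FastQC and the build mm9. Versions, annotation and the strand setting of the counting were not given in the sources used here, so overlapping antisense RNA cannot be told apart with certainty. Estimated counts (fragments per gene and library, unnormalized) and RPKM values, scaled by the authors within a stage, are the deposited values per the file headers. Table replicates, numbered from 0, were taken in order as replicates 1 to 3. Of 23927 gene names, 2 date names and 6 genes with failed estimates listed at 0 were left out. Fragments were rounded (1.79% were not whole). No replicate pair agreed within sampling noise (chi-square per degree of freedom at least 8.26). Counting intervals are exact Poisson at 95% and cover counting error only.

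Genotypes were compared within a stage by edgeR 4.0.16 in R 4.3.3 (TMM, filterByExpr, robust quasi-likelihood), adjusted over all genes at 0.05. Stages and differences of the knockout effect were tested in fits of 12 libraries. The alternatives were RLE scaling, DESeq2 1.42.0, no filter, limma 3.58.1 on log2(RPKM + 0.1) or log2(RPKM + 1), a mean of at least 5 RPKM, no robust step, all 18 libraries, a replicate block and leaving out each library. Shares were compared by exact permutation over all splits with NumPy 2.4.6, and SciPy 1.17.1 gave the counting intervals. The scripts were tested on simulated counts. Sequences came from RefSeq and GENCODE on GRCm38; RefSeq's promoter table matched Tbx4. A stretch of coding sequence is not reported here.

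The members and the gene lists were chosen with earlier results of these data known. Named genes were both members, Pitx1, up to 6 per list (called ones first, then by size of change), 3 neighbours on each side and the 5 most alike by each measure among genes with a mean of at least 1 RPKM in a group, and some of these are not printed. Tbx15, Eomes, Hoxa9, Spry1, Spry4, Sox9, Col2a1, Wnt7a, Nppa, Nkx2-1 and Zfp429 were named after their values were seen.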

Additional observations from a re-analysis of the deposited data

How the results depend on the processing

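Over 345 alternative values, 291 kept their direction and side of the threshold, or stayed within 1.5 times for a count. The direction changed in 8, all of values that were not called and all without 1 library. Over such fits Tbx5 at E12.5 ran from -0.50 to 0.19, the Tbx5 step between E9.5 and E11.5 in the knockout from -0.87 to 0.15, and that between E11.5 and E12.5 in the wild type from -0.36 to 0.42. The difference in the Tbx4 share ran from -0.14 to 0.73 percentage points at E9.5 and from -0.23 to 0.53 at E11.5. Tbx4 at E11.5 was called under every alternative run, with log2 fold changes from -1.59 to -1.47. Tbx4 at E12.5 was called under the 9 alternatives that kept all libraries of the stage (-0.86 to -0.81). It lost the call in 5 of 6 fits without 1 library, whose log2 fold changes ran from -0.90 to -0.78, and the cause was not tested. Tbx5 at E11.5 passed with DESeq2 alone (-1.67). The difference of the Tbx4 effect between E11.5 and E9.5 passed with DESeq2 (-1.13) and all 18 libraries (-1.12), and ran from -1.33 to -0.99 without 1 library. That between E12.5 and E11.5 passed with DESeq2 (0.69). The Tbx5 step between E11.5 and E12.5 in the knockout ran from 1.13 to 1.94 without 1 library.

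The number of genes called moved more. At E9.5 it was 3, against 20 with DESeq2, 1 with a mean of at least 5 RPKM, 1 with limma on log2(RPKM + 1), 0 with all 18 libraries and 0 to 2 without 1 library. At E11.5 it was 286, against 1283 with DESeq2, 525 with no filter, 118 and 133 with limma on log2(RPKM + 1) and log2(RPKM + 0.1), 692 with all 18 libraries and 9 to 643 without 1 library. At E12.5 it was 2, against 449 with DESeq2, 5 with no filter, 1 with a mean of at least 5 RPKM, 4 and 5 with the 2 limma scales, 23 with all 18 libraries and 1 to 15 without 1 library. Where 1 library was left out, an arm of 2 remained. With a mean of at least 5 RPKM, Tbx5 was not tested.

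Replicate numbers were not used to pair the samples in the main fits. The correlations of same-numbered deviations ran from -0.39 to 0.23, and at no stage were all above 0.1. At E12.5 they were 0.17, -0.03 and 0.23, and 3 replicates a group cannot settle whether a factor was shared. With the replicate block 0 genes were called at E9.5, 100 at E11.5 and 386 at E12.5, against 3, 286 and 2 without it. Tbx4 kept its calls with the block, at -1.53 for E11.5 and -0.84 for E12.5. Tbx5 libraries held 14 to 224 fragments, and their spread went beyond counting error: at E11.5 wild-type replicates 1 and 2 had 95% counting intervals of 0.389 to 0.614 and 1.16 to 1.51 RPKM. The gene lists at E12.5 without wild-type replicate 3, a choice made after seeing the data, gave 1 call in the hindlimb list, Pitx1, and no other change in count.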
